A study of Mus musculus with 8 samples.

Results

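The transcripts of 10 HSP90 and HSP70 family chaperones were examined for binding by MBD5 and MBD6 in mouse embryonic stem cells. The genes were *Hsp90aa1*, *Hsp90ab1*, *Hsp90b1*, *Trap1*, *Hspa8*, *Hspa5*, *Hspa9*, *Hspa4*, *Hsph1* and *Hyou1*. The set was chosen by fold enrichment in these data, as *Hsp90b1* and *Hsp90aa1* hold some of the most enriched sites, so the enrichments and site numbers below are a description. A peak was assigned to a gene when its midpoint lay in the gene body on the same strand, and 193 of the 29555 peaks were assigned in this way.

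The peaks came from CLIP–seq, in which ultraviolet light links a protein to the RNA it touches, the protein is pulled down and the trimmed RNA is sequenced. The cells were wild-type mouse embryonic stem cells that stably overexpressed the human coding sequence of MBD5 or of MBD6 from a hygromycin-selected 3xFlag vector. The series holds 8 samples in 4 groups of 2, which are the CLIP and the digested Input of each protein. The 4 Input samples were not analysed here, and untransfected cells were not analysed here either. The characteristics in the labels give a Flag antibody for the CLIP samples, whereas their extraction protocol names one against MBD6. RNA was trimmed with RNase T1, an enzyme that cuts after G.

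HSP90 and HSP70 are ATP-driven chaperones that are conserved across nearly all cells. HSP70 proteins bind short exposed stretches of unfolded chains, J-domain proteins trigger their ATP hydrolysis, and nucleotide exchange factors reset them. HSP90 acts later on partly folded clients such as kinases and steroid receptors, and the cytosol, endoplasmic reticulum and mitochondria each have their own family members. MBD5 and MBD6 share a methyl-CpG-binding domain fold and are known as partners of the PR-DUB deubiquitinase complex.

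The libraries were shallow. The number of reads that the peak caller used was estimated from the peak lists as 478790 and 500143 with Flag-MBD5 but 983918 and 1111742 with Flag-MBD6, whose libraries were 2.14 times as deep on average. At the 39 chaperone sites found in all 4 libraries, the chi-square per degree of freedom was 0.547 within Flag-MBD5 and 0.401 within Flag-MBD6, where independent sampling gives about 1. It was 2.42 to 2.85 between libraries of different proteins. As replicates differed by less than sampling noise, each protein was counted as 1 sample and no test between the proteins was made. Intervals below are 95% intervals that cover counting error only. Of 12 stem cell markers, 4 (33.3%) had an MBD5 region and 7 (58.3%) an MBD6 region, beside 7.80% and 13.8% of all protein-coding genes. *Sox2* had both, *Pou5f1* and *Nanog* an MBD6 region only, and *Klf4*, *Lin28a*, *Tdgf1* and *Utf1* neither. Of 8 markers of feeder fibroblasts only *Fn1* had any, with 14 MBD5 and 10 MBD6 regions. The stem cell markers together held 4 and 9. Region numbers were not scaled to transcript length, so they do not measure how much RNA came from either cell type. RNA levels were not measured in these files, so bound amount and transcript abundance cannot be told apart.

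The sequences at the most enriched sites are shown so that the bound RNA can be seen. Each line gives 30 nt of the GENCODE M21 transcript, from the most common 5′ end among the libraries, or from the most upstream of equally common ends. Where that end lay just before an exon, the window starts at the first base of the exon. In *Hsp90aa1*, *Hsp90ab1* and *Hspa5* no end was repeated, so the window starts where the peak of 1 Flag-MBD6 library did. Capitals mark runs of at least 5 purines. The windows lie on mm10 at chr10:86691719-86691748 (minus strand, *Hsp90b1* exon 17), chr12:110694314-110694343 (minus, *Hsp90aa1* exon 5), chr17:45570533-45570562 (minus, *Hsp90ab1* exon 6), chr9:40804304-40804333 (plus, *Hspa8* exon 7), chr2:34775588-34775617 (plus, *Hspa5* exon 9), chr11:53267088-53267117 (minus, *Hspa4* exon 14) and chr5:149619973-149620002 (minus, *Hsph1* exon 14), and all are coding.
Hsp90b1: gtGGAGGAAGAAccAGAAGAAGAGcctgaa
Hsp90aa1: gtGGAGAAGGAAcgagatAAGGAAGtcagt
Hsp90ab1: AGAAGGAAcGGGAGAAGGAGAtcagtgatg
Hspa8: tttctgctgtagatAAGAGcacAGGAAAGG
Hspa5: tacatttgatctgactggaattcctcctgc
Hspa4: catctcaagctggatcAAAAGAtAAAAAGA
Hsph1: ggcaagatgatcatgcaagacaagctggag
Of the 30 bases, 24 were purines in *Hsp90b1* and *Hsp90aa1* and 25 in *Hsp90ab1*, and the longest purine run was 10, 10 and 12 bases. *Hspa5* had the fewest purines, 11, and neither it nor *Hsph1* had a run longer than 4. These values depend on the start chosen, since both Flag-MBD5 peaks of *Hspa5* began further downstream, at coding positions 1525 and 1524, and a window of the same site at 1535 held 22 purines with a run of 6. In *Hsph1* a window starting at 1867, as 1 Flag-MBD5 peak did, held 22 purines with a run of 10. Over all chaperone peaks the windows were 60.1% purine, below the 63.6% of all peaks in the series and above the 56.4% of the chaperone coding sequences. The *Hsp90b1* window encodes part of the acidic C-terminal tail of the protein, and those of *Hsp90aa1* and *Hsp90ab1* encode part of the charged linker between the N-terminal and middle domains.

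Peaks in the 10 genes numbered 43 and 44 with Flag-MBD5 and 51 and 55 with Flag-MBD6, a mean of 48.2 per library. They were 0.802% (0.596–1.08%) and 0.817% (0.609–1.09%) of all Flag-MBD5 peaks and 0.553% (0.421–0.727%) and 0.574% (0.441–0.746%) of all Flag-MBD6 peaks. Reproducible regions, made by merging peaks that overlap between the replicates of 1 protein, numbered 41 for MBD5 and 48 for MBD6. With the same number of peaks taken from each library they numbered 41 and 34, so the order of the proteins turned. With each protein, 9 of the 10 genes had such a region and *Hyou1* had none, beside 7.80% of 21951 protein-coding genes with an MBD5 region and 13.8% with an MBD6 region. Since enrichment chose the genes, nothing is read from these shares. Overlapping peaks of the 4 libraries formed 57 sites, of which 39 were found in all 4 libraries (68.4%, Wilson interval 55.5–79.0%). The share was 36.5% when sites were instead joined by 5′ ends within 30 nt. Over all 12074 sites the share was 29.5%.

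**Figure D1:**
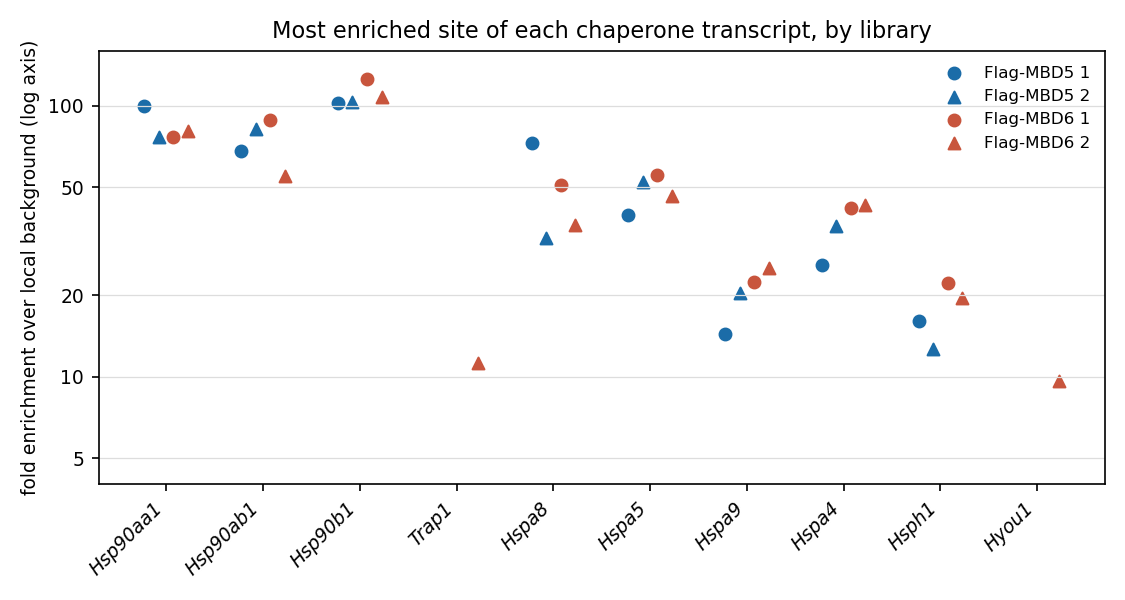
Fold enrichment at the summit over the local background (log axis) of the most enriched site of each gene, by library; circles are replicate 1, triangles replicate 2, blue Flag-MBD5 and red Flag-MBD6, and a missing point means no peak. *Hsp90b1*, *Hsp90aa1* and *Hsp90ab1* lie between 55.2 and 125.3, and *Trap1* and *Hyou1* each have 1 point.

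*Hsp90b1* encodes the HSP90 of the endoplasmic reticulum, also called GRP94 or endoplasmin. It held 9 sites over a coding sequence of 2406 nt, and each was found in all 4 libraries. At the exon 17 site (chr10:86691502-86691753) the fold enrichment was 102.7 and 103.5 with Flag-MBD5 and 125.3 and 108.0 with Flag-MBD6. Its summits held 138 and 146 reads with Flag-MBD5 and 190 and 195 with Flag-MBD6. All 4 values of fold lay above 100, with the Flag-MBD6 values above the Flag-MBD5 values. Scaled to 1000000 reads of the estimated depth (RPM), the order was turned, with 288.2 and 291.9 in Flag-MBD5 and 193.1 and 175.4 in Flag-MBD6. The next site, in exon 7 (chr10:86698204-86698636), had fold enrichments of 94.1 and 84.6 with Flag-MBD5 and 101.1 and 109.3 with Flag-MBD6. The other sites had mean folds of 55.4 in exon 13, 32.9 in exon 8, 32.1 in exon 2 and 26.2 in exon 14. Those in exons 12, 15 and 5 had 17.3, 15.8 and 10.9. All 9 sites together spread over most of the coding sequence, from 2.54% to 94.0% of its length. By the mean fold of its best site, *Hsp90b1* ranked 1 among 2113 genes with a site in all 4 libraries.

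The cytosolic HSP90 genes were the next most enriched. *Hsp90aa1*, the stress-inducible form, had 9 sites, 6 of them in all libraries, and ranked 6. At its exon 5 site (chr12:110693935-110694375) fold enrichment was 99.8 and 76.6 in Flag-MBD5 and 77.1 and 80.6 in Flag-MBD6, so the libraries of the proteins overlapped. The remaining 5 sites found in all libraries had mean folds of 31.3 in exon 9, 29.1 in exon 8, 21.8 in exon 11, 17.6 in exon 4 and 15.7 in exon 2. *Hsp90ab1*, the constitutive form, had 5 sites, all in every library, and ranked 11. At its exon 6 site (chr17:45570173-45570562) the fold was 68.3 and 82.1 in Flag-MBD5 and 88.6 and 55.2 in Flag-MBD6. This site held the most reads of any chaperone site, 282 and 288 with Flag-MBD5 and 347 and 354 with Flag-MBD6. Its other sites had mean folds of 31.6 in exon 9, 21.1 in exon 7, 15.8 in exon 10 and 4.95 in exon 3, the last being the lowest of any chaperone site found in all libraries although 45 to 58 reads lay at its summits.

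*Trap1*, the mitochondrial HSP90, differed from its relatives in level. Only its exon 9 site was found in all libraries, with folds of 6.38 and 8.69 in Flag-MBD5 and 9.84 and 15.1 in Flag-MBD6. Between 7 and 23 reads lay at these summits. Its highest mean fold, 11.2 in exon 15, came from a single Flag-MBD6 library.

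The HSP70 genes lay between these levels. *Hspa8* encodes the constitutive cytosolic HSC70, and its exon 7 site (chr9:40804304-40805114) had folds of 72.8 and 32.5 in Flag-MBD5 and 51.1 and 36.3 in Flag-MBD6, an interleaved order. *Hspa5* encodes BiP, the HSP70 of the endoplasmic reticulum. Its exon 9 site (chr2:34775588-34776237) had folds of 39.7 and 52.2 in Flag-MBD5 and 55.4 and 46.4 in Flag-MBD6, again overlapping. *Hspa9* encodes the mitochondrial HSP70, mortalin, and its exon 17 site had folds of 14.4 and 20.4 in Flag-MBD5 and 22.3 and 25.3 in Flag-MBD6. Here both Flag-MBD6 values were above both Flag-MBD5 values. Its sites in exons 15 and 16 were found in all libraries too, with mean folds of 14.6 and 8.86. The second best sites of *Hspa8* and *Hspa5*, in exons 5 and 6, reached mean folds of 13.0 and 14.8, so in both genes 1 site stood well above the rest. At the *Hspa8* exon 5 site, 3 summits lay inside the intronic small nucleolar RNA *Snord14d*, so its fold may not be that of the exon.

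The HSP110 relatives of HSP70 act mainly as its nucleotide exchange factors. *Hspa4* had 9 sites, and the 6 found in all libraries lay 1 each in exons 13 to 18, between 61.8% and 86.1% of the coding length. This run of exons encodes the C-terminal part of the protein. The best site, in exon 14 (chr11:53266911-53267117), had folds of 25.8 and 36.1 in Flag-MBD5 and 42.0 and 43.2 in Flag-MBD6. *Hsph1* had sites only in exons 14 and 16, both in all libraries, with folds of 16 and 12.7 in Flag-MBD5 and 22.2 and 19.5 in Flag-MBD6 at exon 14. *Hyou1*, which acts in the endoplasmic reticulum beside BiP, had a peak in exon 18 in 1 Flag-MBD5 library (fold 8.79, 14 reads) and another in exon 24 in 1 Flag-MBD6 library (fold 9.64, 16 reads).

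**Figure D2:**
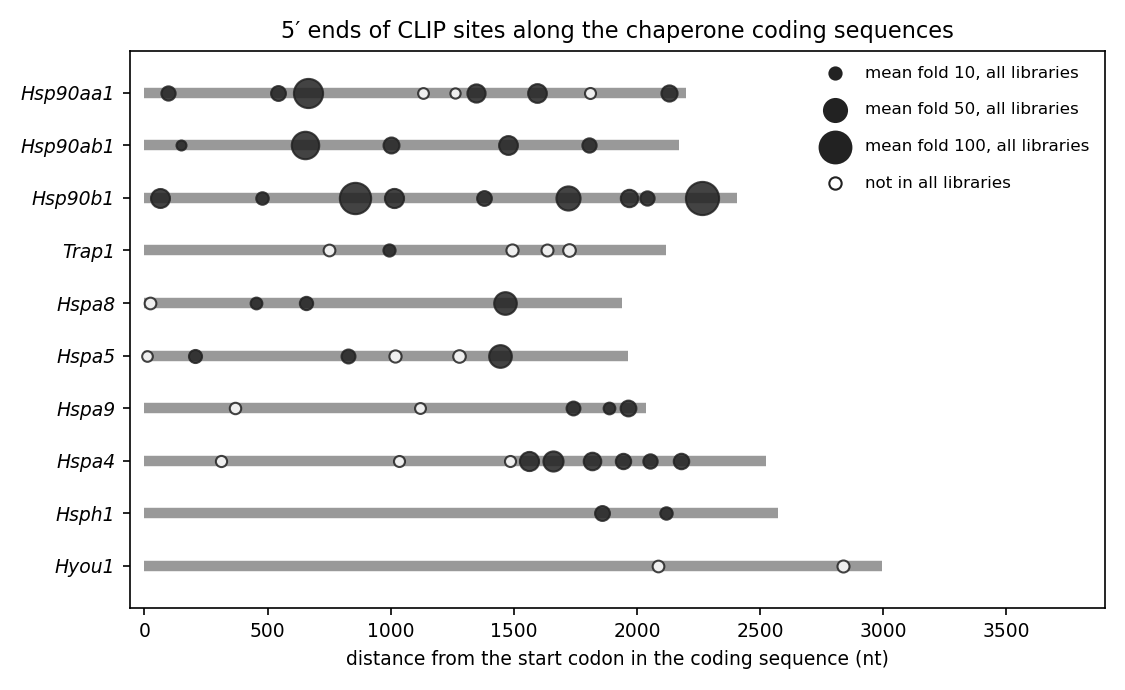
Most common 5′ end of each site (the most upstream of equally common ends) along the coding sequence of its principal transcript, as distance from the start codon in nt; bars are coding sequences, circle area grows with mean fold enrichment, filled circles are sites in all 4 libraries and open circles are not. The filled circles of *Hspa4* sit between 1561 and 2177 nt, and the *Hspa9* site in an intron is not drawn.

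Along the coding sequences more of the chaperone peaks began in the later parts, but this was not tested. Of 184 chaperone peaks whose 5′ end could be placed, 20.7%, 19.0%, 27.7% and 32.6% began in successive equal parts of the coding length, 4 in all, whereas all 23039 such peaks of the series gave 28.3%, 25.6%, 24.3% and 21.7%. Counted as sites, 56 gave 19.6%, 17.9%, 32.1% and 30.4%. Peaks repeat the same sites over the libraries, and shares by site were not computed for the whole series. By the base 15 nt from the 5′ end, 183 of 193 peaks lay in coding sequence (94.8%, 90.7–97.2%), 3 in a 3′ UTR, 6 in a non-coding exon and 1 in an intron, with none in a 5′ UTR. This interval too takes repeated peaks of a site as independent. The share in coding sequence was 79.0% over all peaks and 90.2% over peaks in all protein-coding genes. The share rests on the position used, being 66.3% at the midpoint and 64.2% at the summit of the chaperone peaks, where reads had been extended to 150 bp of genome, introns included. All 3 peaks in a 3′ UTR were those of *Hsp90ab1*, with folds of 8.88 and 7.34 in Flag-MBD5 and 6.54 in 1 Flag-MBD6 library.

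Sites of related genes were compared on pairwise alignments of the coding sequences. *Hsp90aa1* and *Hsp90ab1* were 76.6% identical over 2171 aligned bases, and they were 62.6% and 62.5% identical to *Hsp90b1*. The distances given are those of the nearest ends in any library, so they are the smallest that the peaks allow, and the pairs described are among the nearest. Within 30 nt, 3 of 9 *Hsp90aa1* and 3 of 5 *Hsp90ab1* sites matched, where 24.7% and 29.8% of the coding lengths lay within that distance. *Hspa5* and *Hspa9* had no matched site, nor had *Hyou1* with *Hspa4* or *Hsph1*. No count of matched sites was tested against chance, so conserved positions are not read from these pairs. For the charged-linker sites of *Hsp90aa1* exon 5 and *Hsp90ab1* exon 6 the distance of the nearest ends was 2 nt, although the ends of *Hsp90ab1* ran from 653 to 709 over the libraries. The *Hsp90b1* site in exon 7 had a start 0 nt from 1 of these, at 856, which is the first base of the exon. The Flag-MBD6 peaks placed there began just before the exon, and the Flag-MBD5 peaks began at 808 and 803. The linker windows share 25 of 30 bases, in capitals, and are set from the aligned start (chr12:110694314-110694343 and chr17:45570537-45570566, minus strand).
Hsp90aa1: gTGGAGAAGGAACGaGAtAAGGAagTCAGT
Hsp90ab1: tTGGAGAAGGAACGgGAgAAGGAgaTCAGT
In exon 10 of *Hsp90aa1* and *Hsp90ab1* and exon 14 of *Hsp90b1*, the nearest ends lay within 1 nt of each other, at 83.0%, 82.8% and 81.8% of the coding length. The *Hsp90b1* end was that of 3 libraries, whereas those of *Hsp90aa1* and *Hsp90ab1* were each seen in 1 Flag-MBD5 library, with other ends at 1839 and 1810 in *Hsp90aa1* and 1804, 1804 and 1808 in *Hsp90ab1*. The 30 bases aligned with the *Hsp90b1* end are shown, with capitals for the 23 bases that all 3 genes share (chr10:86693407-86693436, chr12:110692350-110692379 and chr17:45568465-45568494, minus strand).
Hsp90b1: cAACATGGAgaGgATCATGAAgGCaCAaGC
Hsp90aa1: aAACATGGAgaGaATCATGAAaGCtCAaGC
Hsp90ab1: cAACATGGAacGgATCATGAAgGCcCAgGC
The site was weak in *Hsp90aa1*, with a mean fold of 7.20 over 3 libraries, and stronger in *Hsp90ab1* (15.8) and *Hsp90b1* (26.2) over all 4.

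*Hspa4* and *Hsph1* were 67.0% identical over 2488 aligned bases. The nearest ends of *Hsph1* exon 14 and *Hspa4* exon 15 were 0 nt apart, and those of *Hsph1* exon 16 and *Hspa4* exon 17 were 4 nt apart. The *Hsph1* end in exon 14 that gave this, at 1867, was seen in 1 library, while the other libraries began at 1858 or 1859. At the second pair, the ends used were also those of 1 library each. The exon 14 and exon 15 windows share 26 of 30 bases, in capitals (chr11:53266011-53266040 and chr5:149619964-149619993, minus strand).
Hspa4: ATCATGCAgGAtAAaCTGGAGAAGGAaCGG
Hsph1: ATCATGCAaGAcAAgCTGGAGAAGGAgCGG
The mean fold of these sites was 26.8 in *Hspa4* and 17.6 in *Hsph1*.

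**Figure D3:**
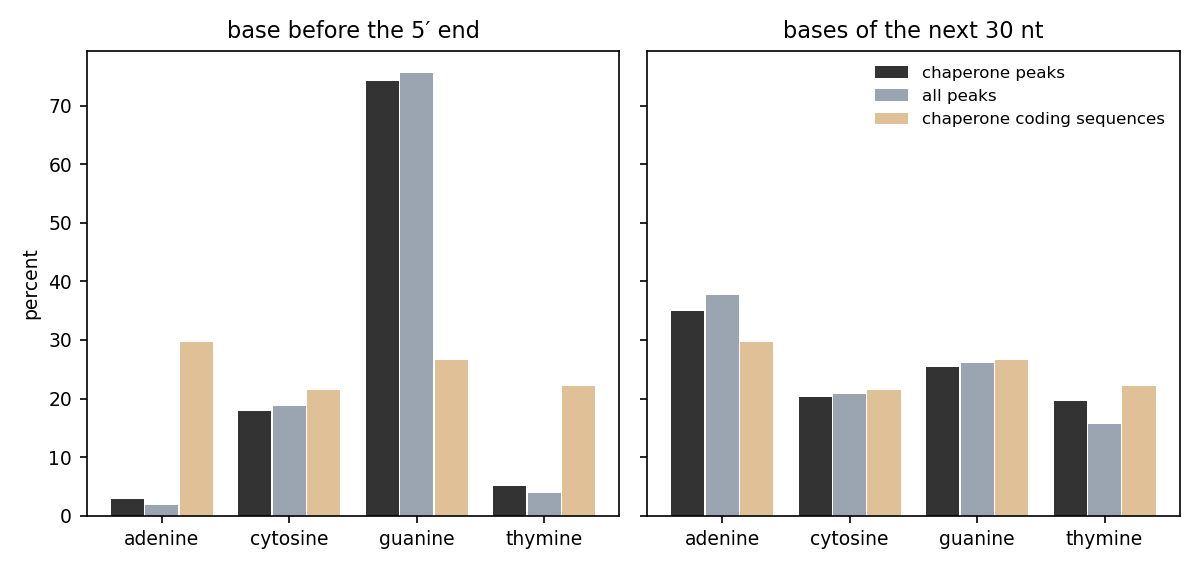
Percent of each base directly before the 5′ end of a peak (left) and in the following 30 nt (right), for chaperone peaks, all peaks and every position of the chaperone coding sequences. Guanine precedes 74.3% of the chaperone peaks, and adenine makes up 34.9% of their windows against 29.7% of their coding sequences.

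G stood directly before the 5′ end in 133 of 179 chaperone peaks (74.3%, 67.4–80.1%) and in 75.6% of all peaks, where 26.6% of the chaperone coding sequence is G. The interval takes repeated peaks of a site as independent and is therefore too narrow. With each chaperone site counted once the share was 83.3%, outside it. Cytosine followed with 17.9% of chaperone peaks. RNase T1 cuts after G, so the 5′ ends mark where the enzyme cut as well as where a protein was bound. In the first 30 nt, chaperone windows held 34.9% adenine, 20.3% cytosine, 25.3% guanine and 19.5% thymine. Adenine was thus above the 29.7% of the same coding sequences and below the 37.6% of all peaks, and each of the 4 libraries gave this order, with 34.2% to 36.2% in chaperone windows and 36.5% to 38.1% in all windows. *Hspa4* windows had the most adenine (40.3%, against 31.6% of its coding sequence), while *Hsp90ab1* windows (26.5% against 28.3%) and *Hyou1* windows (25% against 26.1%) lay below theirs. *Hyou1* had only 2 windows, too few to read a difference, beside 29 of *Hspa4* and 23 of *Hsp90ab1*. CpG made up 2.42% of neighbouring base pairs in chaperone windows, 2.32% in their coding sequences and 3.25% in the windows of all peaks.

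The proteins were then compared at the 39 sites found in all libraries, using summit RPM. The median log2 of MBD6 over MBD5 was −0.34 over the 3566 such sites of the series, of which 2582 were below 0, and the chaperone sites had a median of −0.68, from −1.61 to 0.45. In deposited fold enrichment the direction turned, with medians of 0.41 over all sites and 0.14 over the chaperone sites, 23 of which were above 0 and 16 below. This fold has the same constant added to signal and background, so it changes with depth. The part of this constant in the turn was not tested. Relative to the median of all sites, the chaperone sites lay lower by either measure, at −0.34 in reads and −0.27 in fold, with 28 and 29 of 39 sites below it. Sites with many reads shared this, since the 166 sites of the series whose summit reads averaged 100 or more lay at −0.28 and −0.50. The 8 chaperone sites that deep had a median log2 of −0.67 in reads, beside −0.62 for all 166. At most 5 reads were kept per position, and its part in this difference was not tested.

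Of the 39 sites, 8 were at least 2-fold higher in Flag-MBD5 in RPM, where 9.96% of all sites were, and 0 were 2-fold higher in Flag-MBD6, where 0.841% were. The counting interval of the log2 ratio lay below 0 at 20 sites, above 0 at 0 sites and below the median of all sites at 12. Such intervals were not computed for all sites of the series, so these counts are not read as particular to the chaperones. These counts hold for RPM and not for fold enrichment, in which the direction turned. *Hsp90ab1* exon 10 was the lowest, with 300.8 and 287.9 RPM in Flag-MBD5 against 91.5 and 100.7 in Flag-MBD6, a log2 ratio of −1.61 (−1.99 to −1.23), at a site where peaks of coding sequence and 3′ UTR were joined. *Hspa5* exon 3 followed with 79.4 and 82.0 against 27.4 and 27, a log2 ratio of −1.57 (−2.36 to −0.88). In RPM the proteins did not overlap at either site. In fold enrichment they did at *Hspa5* exon 3, with 14.9 and 10.5 in Flag-MBD5 and 9.44 and 14.8 in Flag-MBD6, while at *Hsp90ab1* exon 10 they did not, with 19.9 and 17.8 against 13.3 and 12.3.

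**Figure D4:**
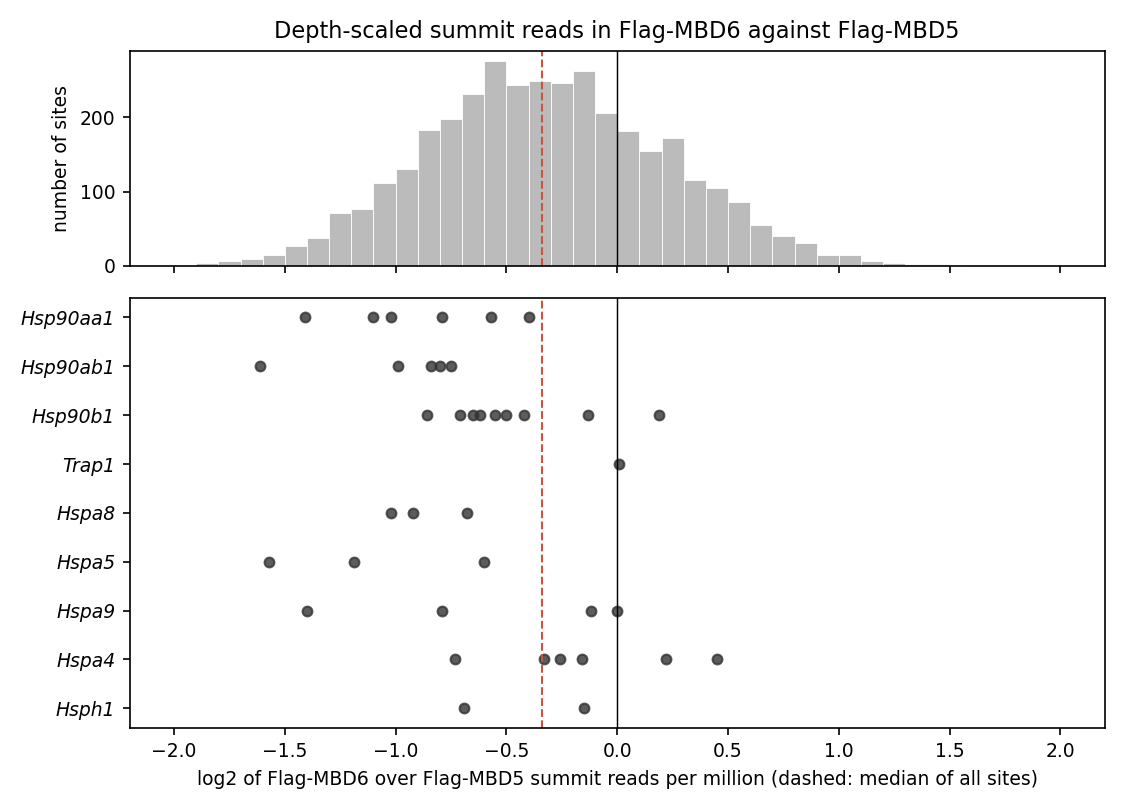
Log2 of Flag-MBD6 over Flag-MBD5 summit RPM at sites found in all 4 libraries; the histogram counts all 3566 sites of the series, and each dot below is 1 chaperone site, by gene. The dashed line is the median of all sites, −0.34. The dots of *Hsp90aa1*, *Hsp90ab1*, *Hspa8* and *Hspa5* lie to its left, and those of *Hspa4* mostly to its right.

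By gene, all 6 sites of *Hsp90aa1*, 5 of *Hsp90ab1*, 3 of *Hspa8* and 3 of *Hspa5* lay below the median of all sites in reads as in fold. Those of *Hspa8* include the exon 5 site, which had summits inside *Snord14d*. The medians of these genes in reads, relative to that of all sites, were −0.57, −0.50, −0.59 and −0.85, and in fold −0.54, −0.47, −0.68 and −0.48. *Hsp90b1* was nearer, at −0.22 and −0.19. *Hspa4* lay at 0.13 and 0.07, with 1 of its 6 sites below the median of all sites in reads and 2 in fold. *Hspa4* exon 17 had 25.1 and 28.0 RPM in Flag-MBD5 and 37.6 and 35.1 in Flag-MBD6, a log2 ratio of 0.45 (−0.49 to 1.48). By this counting interval the difference was not detectable at this depth, although the libraries of the proteins did not overlap. In fold they did not overlap either, with 9.33 and 10.9 in Flag-MBD5 and 21.9 and 21.8 in Flag-MBD6.

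No chaperone site was found in both Flag-MBD5 libraries and neither Flag-MBD6 library, while 6 were found in both Flag-MBD6 libraries only. The shares of these patterns over all sites were not computed, so the counts are not read as a trait of the chaperones. The sites in both Flag-MBD6 libraries only are listed for description. They were *Hsp90aa1* exon 6, *Trap1* exon 13, *Hspa5* exon 2, *Hspa9* exon 4, and *Hspa4* exons 4 and 12. *Trap1* exon 13 was the strongest of them, with folds of 7.31 and 12.6 in the Flag-MBD6 replicates, and *Hspa5* exon 2 the weakest, with 7.42 and 5.33. Their summits held between 9 and 27 reads and their mean folds were 6.37 to 9.93, in libraries with 2.14 times the depth of those that lacked them.

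Some of these values rest on reads that other loci share. Reads with up to 3 mismatches and up to 10 places were kept, with 1 place reported. All 9 *Hsp90aa1* sites and all 4 *Hspa8* sites had an identical 30-nt copy in another annotated gene, and within 3 mismatches so had 4 of 5 *Hsp90ab1* and 3 of 5 *Hspa9* sites. No copy was found for sites of *Hsp90b1*, *Trap1*, *Hspa5*, *Hspa4*, *Hsph1* and *Hyou1*. The genes with *Hsp90aa1* copies held 41 peaks of their own, with a fold of up to 82.4 in the pseudogene *Gm12346*, and those with *Hspa8* copies held 55 peaks. Reads of these genes and their pseudogenes cannot be told apart in the peak lists.

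Small nucleolar RNAs hosted in introns were overlapped by 12 of the 193 peaks. In *Hspa8*, the exon 5 site of 1160 bp spanned *Snord14c* and *Snord14d*, with 3 summits inside *Snord14d* (chr9:40803995-40804080). The exon 7 site overlapped *Snord14e*, with no summit inside it. The *Hspa9* intron site covered the small nucleolar RNA *Gm26109*, and its Flag-MBD5 peaks began within 5 nt of the 5′ end of that RNA. Its folds were 21.2 and 22.9 in Flag-MBD5 and 14.7 and 12 in Flag-MBD6, with a log2 ratio in reads of −1.40 (−2.21 to −0.54).

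Genes that work with these chaperones were looked up from lists of their known roles, chosen with earlier results of these data known. Of 105 partner genes, 26 (24.8%) had an MBD5 region and 42 an MBD6 region, beside 7.80% and 13.8% of all protein-coding genes. The latter were not limited to expressed genes, so the differences here and below are not read as a link to the chaperones. With equal peak numbers per library the partner counts were 26 and 35. Among 21 folding partners in the endoplasmic reticulum, 10 (47.6%) had an MBD5 and 13 (61.9%) an MBD6 region. Calnexin (*Canx*), a lectin chaperone of that compartment, led them with folds of 72.9 and 72.6 in Flag-MBD5 and 61.7 and 62.4 in Flag-MBD6 at its best site. The related calreticulin (*Calr*) had a mean fold of 63.5 and *Manf*, a BiP cofactor, one of 50.0.

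Of 22 HSP90 co-chaperones, 7 (31.8%) had an MBD5 and 12 (54.5%) an MBD6 region, beside the same 7.80% and 13.8% of all genes. *Dnajc7*, which binds both HSP90 and HSP70, had the highest mean fold (42.8), followed by *Cdc37*, the co-chaperone for kinases (30.3), and *Sugt1* (29.6). Of 39 J-domain proteins, 8 (20.5%) and 15 (38.5%) had regions, with *Sec63*, part of the translocation machinery of the endoplasmic reticulum (38.5), and *Dnajb1* (23.7) next after *Dnajc7*. Among exchange factors 1 of 10 genes had a region with each protein, a share (10.0%) near that of all genes, and this was *Bag1* (14.5). Among heat shock factors and their regulator, 1 of 5 had an MBD5 and 2 an MBD6 region, with *Hsbp1* at 21.8. None of 9 other HSP70 genes had a peak in any library, the heat-inducible *Hspa1a* and *Hspa1b* included.

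The pattern most like that of *Hsp90b1*, by the Euclidean distance between the log2 folds of the best sites in the 4 libraries, was found among 2113 genes in the processed pseudogene *Gm9892* (0.29), *Pkm* (0.85) and *Nrd1* (0.92). Those nearest to *Hsp90aa1* were *Pkm* (0.38), *Ssr1* (0.65) and *Rpl4* (0.67). The 4 libraries stand for 2 samples, so this likeness is mainly one of level.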

How the data were processed

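Peaks were deposited per library. Per the methods and processing notes, the authors clipped, quality-filtered and collapsed reads, kept those over 15 nt, removed ribosomal RNA, aligned without splicing to mm10 (Bowtie 1.0.0), split strands (SAMtools 1.16.1) and called peaks with MACS2 (q under 0.01, extension 150 bp, genome size 130000000 bp, at most 5 reads per position). The deposited fold is a ratio of summit signal to local background after the same constant is added to both. The deposited −log10 p, −log10 q and score are MACS2 values. Summit offsets, another deposited column, give positions.

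Summit reads and background rates were solved from each peak's fold and −log10 p, and depth from the lowest rate per strand. The solved reads and the log2 ratio were first tested on simulated data. The simulations took the estimated depth as given, so the depth estimate, on which RPM rests, was not tested. Peaks, sites and regions were joined by 1 bp of overlap on a strand. Positions and windows came from GENCODE M21 principal transcripts, and alignments from Biopython 1.88 (match 2, mismatch −1, gap opening −6, extension −0.5). Python 3.11.15, numpy 2.4.6, pandas 2.3.3 and scipy 1.17.1 were used. No genome sequence was used, and 13 chaperone peaks that began just before an exon were read from its first base.

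Named were all 10 genes, each one's site of highest mean fold, sites of 1 protein only, up to 3 genes per partner list by mean fold, and the 3 nearest genes. Other sites and genes were named after their values were seen. Members and lists were chosen with earlier results of these data known. Alternatives covered q, fold, equal peak numbers, overlap, membership, site definition, scaling, position, window and each library. Comparisons of aligned coding sequences, sequence copies and small nucleolar RNAs were added after the data were seen.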

Additional observations from a re-analysis of the deposited data

How the results depend on the processing

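Of 57 alternative values other than those leaving out a library, 47 stayed within their limits. The limits were 1.5-fold for counts, the 95% interval for shares and 1 SD for the rest. A −log10 q of at least 4 and a fold of at least 4 returned every main value exactly. Those settings changed nothing here, so their part of the 47 is no sign of stability. The share of chaperone sites in all 4 libraries fell to 36.5% when sites were joined by 5′ ends within 30 nt. The share in coding sequence was 66.3% at the midpoint, 64.2% at the summit, 97.2% without peaks over small nucleolar RNAs and 100.0% without the 4 genes with copies elsewhere. G preceded 83.3% of sites when each was counted once. The median log2 of MBD6 over MBD5 was −0.34 after scaling by all sites, 0.14 in fold enrichment and −0.50 without the genes with copies, which also raised adenine to 36.5%. Both sets without peaks or genes were chosen after seeing the data. Apart from the change of scale or of peaks itself, the cause was not tested.

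Without 1 library at a time, peaks per library were 46.0 to 50.0, MBD5 regions 41 to 44, MBD6 regions 48 to 55, the share of sites in all remaining libraries 70.2% to 76.9%, the median log2 ratio −0.73 to −0.63, coding sequence 94.2% to 95.3%, G 71.5% to 76.7%, adenine 34.5% to 35.1%, and partner genes 26 to 32 (MBD5) and 42 to 47 (MBD6). A protein left with 1 library was represented by its single peaks.

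Replicate numbers did not mark a shared source in the labels. Deviations of same-numbered libraries from the mean of their protein correlated at 0.40 over the 39 chaperone sites and at 0.03 over all 3566, with 2 pairs. Under the replicate block the median log2 ratio was −0.67, and no call existed to change.

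Depth limits the weak sites. The fewest reads at a chaperone summit were 7, and at such sites a missing peak does not show missing binding.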
